A study of Mus musculus with 18 samples.

Results

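The Rab GTPases are the largest family of small GTP-binding proteins that direct traffic between the membranes of a cell. Each Rab cycles between a GTP-bound form, which sits on the membrane of a given compartment and recruits effectors there, and a GDP-bound form, which is extracted into the cytosol. In dendritic cells Rabs are known for carrying antigen receptors and Toll-like receptors to and from the surface, for maturing phagosomes, and for routing internalised antigen to the compartments where it is loaded on MHC molecules. Genes were taken as members where their symbol was Rab followed by a number and at most 1 letter and 1 further digit, which leaves out Rab effectors and regulators. That rule found 58 of the 16614 genes in the deposited table. Of these, 43 passed the filter on low counts and were tested.

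The RNA came from mouse bone marrow-derived dendritic cells (BMDC), grown for 7 to 10 days in medium holding 20 ng/ml GM-CSF and 100 ng/ml Flt3L, and isolated by XCR1, a chemokine receptor of type 1 conventional dendritic cells (cDC1). The 4 groups were KO cells with LPS (5 libraries), WT cells with LPS (5), KO control cells (4) and WT control cells (4). LPS, from bacterial cell walls, acts through Toll-like receptor 4. The labels give no name for the deleted gene, so the deletion was not checked, and they give neither strain, sex, age, Cre driver, LPS dose nor time, while the title of the series is about STAT5 and STAT3, transcription factors of cytokine signalling. They do not say that replicates are separate cultures or animals, so p-values measure the spread between libraries as deposited.

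Each library held 25590104 to 27375189 estimated counts. All 12 cDC1 markers on a fixed list were found in every group, with summed levels of 1681 to 2118 TPM in KO LPS, 1939 to 2654 in WT LPS, 4117 to 4722 in KO Control and 4576 to 4951 in WT Control. Of the other cell types on the lists, the 10 monocyte and macrophage markers were all found in every group and summed to 1461 to 2360 TPM in KO LPS, 1943 to 2061 in WT LPS, 3404 to 3780 in KO Control and 3694 to 3791 in WT Control, most of it from Lyz2. KO LPS replicate 2 held the 2360 TPM, and the other 4 KO LPS libraries 1461 to 1768 TPM. These sums were lower with LPS in both genotypes. Single cDC1 markers also differed between genotypes with LPS, with mean Naaa at 289 TPM in KO LPS and 573 in WT LPS. Xcr1 stood at 80.7 and 128 TPM in the same order, while Irf8, Cadm1, Tlr3 and Zbtb46 were higher in KO LPS. The part of these marker levels in the LPS changes and genotype differences below was not tested. Neutrophil markers summed to 531 TPM in WT LPS replicate 5 and 250 TPM in WT Control replicate 4, against at most 15.4 TPM in any other library. WT LPS replicate 2 held the highest value of its group for 22 of the 43 tested Rab genes and the lowest for 9. For Rab genes, results that rest on these libraries are given with and without them. Values of machinery genes and of genes beside the members are from fits of all libraries only. In bulk RNA, fewer cells of a type and less RNA per cell cannot be told apart.

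Between KO and WT cells with LPS, 2 of the 43 tested Rab genes were called (4.65%, beside 10.8% of all tested genes). These were Rab27a and Rab24, both lower in KO. Stretches of both promoters are shown because these were the called members, beside that of Rab20, the member with the highest fold change for LPS. Each stretch covers the bases from -100 to -1 relative to the RefSeq start (build GRCm38.p6), at chr9:73044710-73044809 on the plus strand for Rab27a, chr13:55321981-55322080 on the minus strand for Rab24 and chr8:11478641-11478740 on the minus strand for Rab20. Capitals mark matches on either strand to the outer letters of the NF-kB consensus (GGG, any 5 bases, then CC). The match in Rab27a is on the strand opposite to the one printed, so it reads GG, any 5 bases, then CCC.
Rab27a: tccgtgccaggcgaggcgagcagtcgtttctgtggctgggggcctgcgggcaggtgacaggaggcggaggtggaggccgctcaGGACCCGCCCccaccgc
Rab24: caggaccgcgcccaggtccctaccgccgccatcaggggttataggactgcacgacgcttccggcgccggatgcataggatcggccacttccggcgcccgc
Rab20: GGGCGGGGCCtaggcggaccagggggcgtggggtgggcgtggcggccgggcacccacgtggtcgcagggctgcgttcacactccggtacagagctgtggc

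The stretches of Rab27a and Rab20 each hold a match to that motif, and the stretch of Rab24 holds none. RefSeq windows of 250 bases before to 50 after the start were at hand for 47 of the 58 members, 38 of them tested, and some genes had several windows. On either strand, the NF-kB letters were in 72.3% of the 47 windows of tested Rab genes, against 66.7% of the windows of all tested genes. The STAT dimer motif TTCNNNGAA was in 6.38% of the Rab windows, those of Rab11a, Rab19 and Rab34, against 6.92% of those of all tested genes. The interferon motif (GAAA, any 2 bases, then GAAA) was in 1 Rab window, of Rab19, or 2.13%, against 3.37%. None of the Rab27a, Rab24 or Rab20 windows held either of the last 2 motifs. The shares in Rab windows thus lay close to those of all tested genes.

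Rab27a (gene ID 11891) docks lysosome-related and secretory organelles at the plasma membrane, releases exosomes, and in mouse dendritic cells brings the NADPH oxidase to phagosomes. Levels are given in CPM, counts scaled by library size and TMM factors, unless TPM is named. Rab27a lay at 22.0, 27.8, 40.7, 31.6 and 31.9 CPM in the KO LPS libraries, against 56.0, 44.8, 63.4, 62.2 and 54.6 CPM in the WT LPS libraries. Every KO LPS library lay below every WT LPS library. The difference on the log2 scale was -0.87 ± 0.12 (SE; edgeR adjusted p = 6.3e-05, adjusted over all 11989 genes tested). In control cells Rab27a lay at 46.9, 55.9, 49.2 and 50.0 CPM in the KO Control libraries, against 54.3, 58.4, 57.3 and 55.5 CPM in the WT Control libraries. These groups overlapped, and the difference of -0.16 ± 0.13 did not pass (edgeR adjusted p = 0.65). Within KO cells Rab27a was lower with LPS than in control (-0.71 ± 0.12, edgeR adjusted p = 1.9e-05), and within WT cells the difference was 0.00 ± 0.12 (edgeR adjusted p = 0.98). The WT value depends on the scaling: with scaling to total counts Rab27a was lower with LPS in WT as well, at -0.74 (edgeR adjusted p = 4.1e-05), beside -1.49 in KO (edgeR adjusted p = 3.0e-09). The difference between these 2 LPS effects, the interaction of genotype and LPS, passed (-0.71 ± 0.17, edgeR adjusted p = 0.026).

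Rab24 (gene ID 19336), an atypical Rab with slow GTP hydrolysis that takes part in clearing autophagosomes, followed at lower counts. It lay at 10.6, 12.4, 14.7, 12.7 and 12.5 CPM in the KO LPS libraries, against 19.6, 14.8, 22.5, 19.0 and 16.9 CPM in the WT LPS libraries. The lowest WT LPS value was that of replicate 2 and lay just above the highest KO LPS value, so the genotypes did not overlap. The difference was -0.56 ± 0.09 (edgeR adjusted p = 5.9e-04). Control libraries gave 29.9, 31.2, 31.0 and 33.1 CPM in the KO Control libraries, against 30.9, 32.2, 29.6 and 30.7 CPM in the WT Control libraries, with overlap and a difference of 0.02 ± 0.09 (edgeR adjusted p = 0.96). With LPS, Rab24 fell in both genotypes (log2 change -1.31 in KO and -0.73 in WT), and the interaction of -0.58 ± 0.13 passed (edgeR adjusted p = 0.02).

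Called members were thus 2 of 43, or 4.65%, at an adjusted p under 0.05, where 10.8% of all tested genes were called between KO and WT with LPS. Genes called higher were 5.30% and genes called lower 5.50% of all tested genes, and both members were lower. The median log2 difference was 0.02 over the 43 members and -0.02 over all tested genes. In the interaction, the same 2 members were called, beside 3.82% of all tested genes (1.03% higher and 2.79% lower). The calls of Rab27a and Rab24 with LPS held in every alternative run, with differences of -0.99 to -0.77 for Rab27a and -0.64 to -0.48 for Rab24. Their interaction calls were less firm. That of Rab24 was lost without WT Control replicate 3 (edgeR adjusted p = 0.054), and that of Rab27a without KO Control replicate 2 or WT Control replicate 3 or 4 (up to 0.06) and without both WT libraries that hold neutrophil transcripts (0.072).

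**Figure D1:**
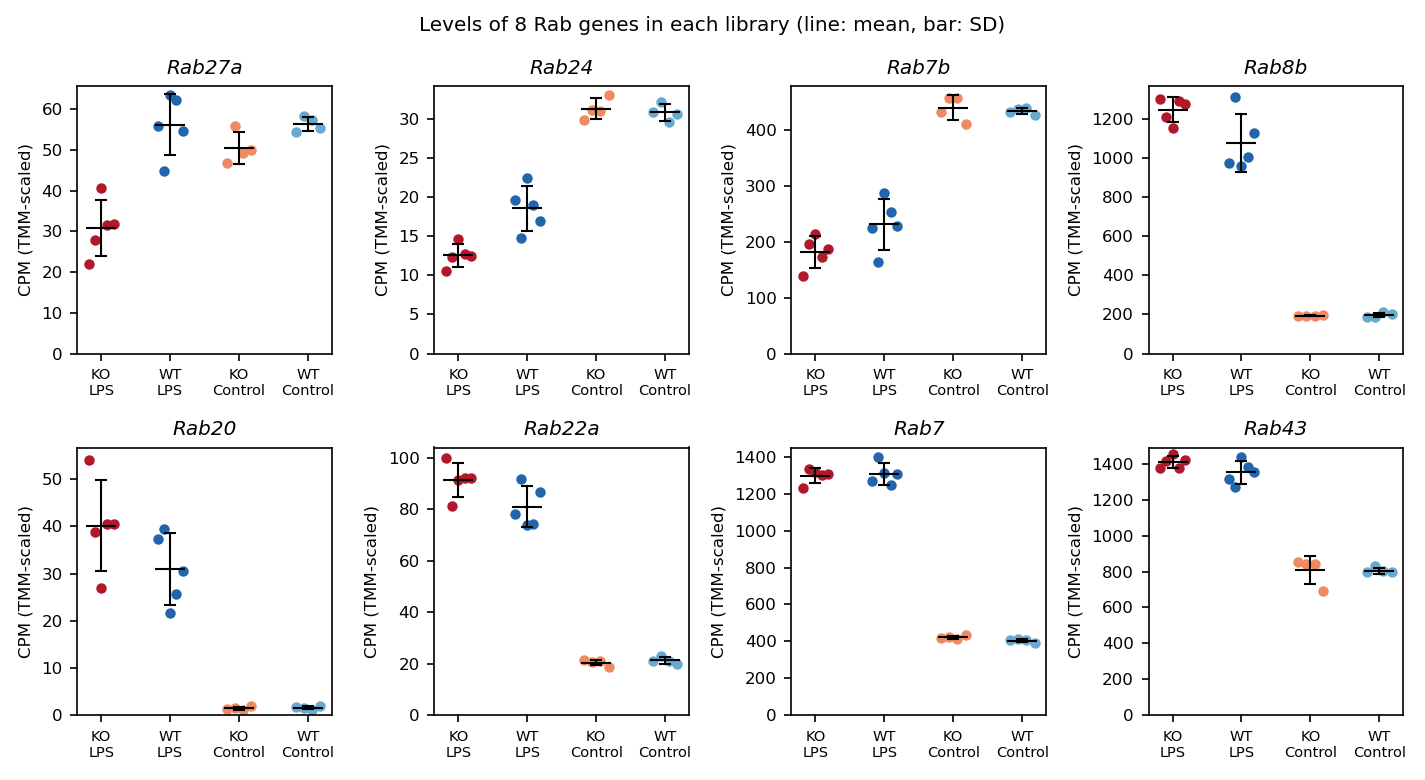
Levels of 8 Rab genes in each library (points), with group means (line) and SD (bar), in TMM-scaled CPM on axes that start at 0. Each panel runs KO LPS, WT LPS, KO Control, WT Control. The KO LPS points of Rab27a (22.0 to 40.7 CPM) and Rab24 (10.6 to 14.7 CPM) lie below all WT LPS points.

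The genes beside both members were read as a check of location. By RefSeq names, neither Rab27a nor Rab24 overlaps another gene. Of the neighbours of Rab27a, Khdc3 was lower in KO with LPS (1.07 CPM in KO LPS and 2.41 CPM in WT LPS, -1.18 ± 0.24, edgeR adjusted p = 0.0036) and Pigbos1 did not pass (-0.33 ± 0.15, 0.17). Khdc3 lay at few reads in every group. The neighbours of Rab24, Nsd1 (0.07 ± 0.08, 0.64) and Prelid1 (-0.13 ± 0.06, 0.18), did not pass.

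Among members not called between KO and WT with LPS, the nearest to the threshold were Rab8b, Rab7b and Rab32. Rab8b, which carries cargo to the plasma membrane, lay at 1306, 1209, 1155, 1293 and 1280 CPM in the KO LPS libraries, against 975, 1314, 959, 1006 and 1130 CPM in the WT LPS libraries (0.21 ± 0.07, edgeR adjusted p = 0.058). WT LPS replicate 2 was the highest of all 10 libraries, and the other 4 WT LPS libraries lay below all 5 KO LPS libraries. Rab7b, which in macrophages promotes the breakdown of Toll-like receptor 4, lay at 138, 196, 214, 172 and 187 CPM in the KO LPS libraries, against 224, 163, 287, 254 and 228 CPM in the WT LPS libraries (-0.35 ± 0.12, edgeR adjusted p = 0.059). Here WT LPS replicate 2 was the lowest of its group, within the KO LPS range, while the other WT LPS libraries lay above all KO LPS libraries. Rab32, of lysosome-related organelles, lay at 126, 109, 126, 124 and 117 CPM in the KO LPS libraries, against 108, 96.9, 120, 109 and 104 CPM in the WT LPS libraries (0.16 ± 0.06, edgeR adjusted p = 0.072), and the genotypes overlapped. DESeq2 called all 3 of them, with adjusted p = 0.024 for Rab8b, 0.046 for Rab7b and 0.01 for Rab32. With a replicate block, edgeR called them too (adjusted p = 0.022, 0.038 and 0.015), and also Rab20 (0.027) and Rab4b (0.037). The block brought the called members to 7 (16.3%), beside 16.0% of all tested genes.

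Rab4b, a Rab of fast recycling endosomes named here after its values were seen, lay at 38.0, 36.7, 34.8, 37.5 and 36.8 CPM in the KO LPS libraries, against 50.5, 39.6, 38.5, 39.5 and 40.9 CPM in the WT LPS libraries. It was the third member whose genotypes did not overlap, but the difference did not pass (-0.19 ± 0.07, edgeR adjusted p = 0.11). Those 3 members are 6.98% of the 43, where 6.51% of all tested genes did not overlap between KO LPS and WT LPS. Rab20, which acts in phagosome maturation, averaged 40.2 ± 9.65 CPM in KO LPS and 30.9 ± 7.57 CPM in WT LPS (SD, n = 5 each), and these overlapped (0.38 ± 0.17, edgeR adjusted p = 0.16). Rab22a, a recycling Rab needed for cross-presentation by mouse dendritic cells, averaged 91.3 ± 6.61 CPM in KO LPS and 81.0 ± 7.95 CPM in WT LPS (0.17 ± 0.07, edgeR adjusted p = 0.1).

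The count of calls depended most on 1 library. Without WT LPS replicate 2, 12 of 43 members were called between KO and WT with LPS, or 27.9%, and so were 27.9% of all genes tested in that fit. The share of members was thus that of the background. Rab11a, Rab12, Rab20, Rab21, Rab22a, Rab29, Rab5a and Rab8b were then higher in KO, and Rab24, Rab27a, Rab4b and Rab7b lower. In that fit Rab8b differed by 0.30 (edgeR adjusted p = 3.6e-04), Rab21 by 0.38 (2.5e-04), Rab22a by 0.22 (0.01) and Rab7b by -0.45 (9.5e-04). The interaction then called 6 members, with Rab21, Rab22a and Rab8b higher and Rab24, Rab27a and Rab7b lower, or 14.0% of members beside 12.5% of all tested genes. Without KO LPS replicate 2 the count was 5 (11.6% of members and 11.6% of all tested genes), with Rab22a, Rab32 and Rab5b added, and without KO LPS replicate 3 it was also 5 (beside 10.8% of all tested genes), with Rab20, Rab8b and Rab7b added. The direction of Rab8b, Rab21, Rab22a and Rab7b was the same with WT LPS replicate 2 in the fit. Both fits share all other libraries, so the like direction is no independent evidence.

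**Figure D2:**
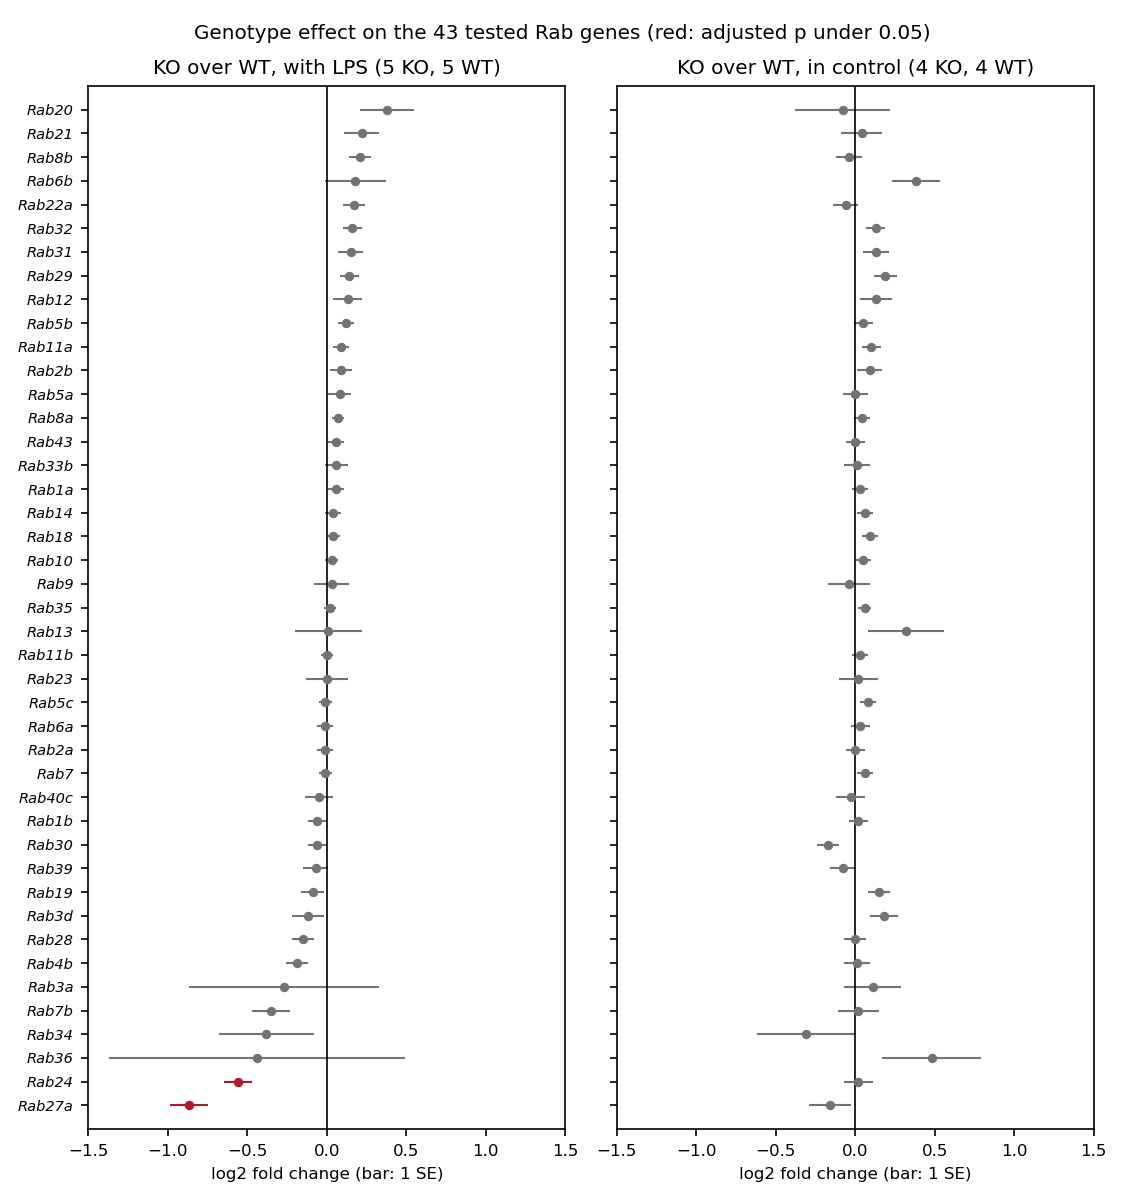
Log2 fold change of KO over WT with LPS (left) and in control (right) for the 43 tested Rab genes, ordered by the left panel, with bars of 1 SE. Red points have an adjusted p under 0.05; Rab27a at -0.87 and Rab24 at -0.56 with LPS are the 2 such points.

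In control cells, 0 of 43 members were called between KO and WT by edgeR, DESeq2 and limma-voom, where edgeR called 2.41% of all tested genes. The nearest to the threshold were Rab29 (0.19 ± 0.07, edgeR adjusted p = 0.25), Rab30 (-0.17 ± 0.07, 0.26), Rab6b and Rab19 (0.15 ± 0.07, 0.33). The largest of these 4 differences was that of Rab6b, at 10.0, 10.6, 10.2 and 8.43 CPM in the KO Control libraries, against 7.03, 8.57, 7.80 and 6.83 CPM in the WT Control libraries (0.38 ± 0.15, edgeR adjusted p = 0.26). Rab6b passed in some alternatives, and the groups overlapped in their lowest KO and highest WT values. In control, 3 of the 43 members did not overlap between genotypes (Rab11a, Rab19 and Rab5c), and none of them was called. The share of all tested genes without overlap in control was not computed.

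Rab4a, a recycling Rab named here after its values were seen, was below the filter. Its estimated counts were 15, 12, 12 and 7 in the KO Control libraries, against 2, 1, 1 and 1 in the WT Control libraries. With LPS they were 3, 0, 2, 5 and 1 in KO, against 0, 0, 1, 0 and 0 in WT. In control these groups did not overlap, at counts of no more than 15 in a library. Fitted with no filter, Rab4a was higher in KO control cells (3.07 ± 0.55, edgeR adjusted p = 0.0038) and did not pass with LPS (3.04 ± 0.94, edgeR adjusted p = 0.053). Rab4a also passed the filter, and was called in control, when any 1 of WT Control replicates 1 to 4 or KO Control replicate 4 was left out.

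LPS moved most Rab genes in both genotypes. In KO cells 41 of 43 members were called between LPS and control, 26 higher and 15 lower, where 86.2% of all tested genes were called (40.0% higher and 46.2% lower). In WT cells 39 of 43 were called, 26 higher and 13 lower, where 85.5% of all tested genes were called (40.7% higher and 44.7% lower). The same 26 members were higher in both. Members called and at least 2-fold higher were 14 in KO (32.6%, against 20.0% of all tested genes) and 16 in WT (37.2%, against 19.4%). Those at least 2-fold lower were 7 in KO (16.3%, against 26.2%) and 4 in WT (9.30%, against 23.9%). The median log2 change was 0.52 in KO and 0.56 in WT for the members, against -0.10 and -0.06 for all tested genes.

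These directions rest on TMM scaling. With scaling to total counts, the median of all genes moved by -0.78 log2 in KO and -0.74 in WT. The split then became 15 higher and 24 lower in KO, and 15 higher and 23 lower in WT, where 20.2% of all tested genes were higher and 70.4% lower in KO, and 19.8% higher and 69.9% lower in WT. Members at least 2-fold higher became 5 in KO and 5 in WT, and those at least 2-fold lower 14 in KO and 12 in WT, so that strong falls then outnumbered strong rises. Over all tested genes these shares were 11.0% higher and 46.2% lower in KO, and 10.8% higher and 43.1% lower in WT. The median change of the members was -0.27 in KO and -0.18 in WT, against -0.88 and -0.80 for all tested genes. Rab11b, Rab14, Rab2a, Rab33b, Rab35, Rab5b and Rab6a changed sign in both genotypes, and Rab13 and Rab5c in KO. The other called members kept their direction, so changes are read below relative to this shift.

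Among Rabs of surface delivery, 4 of 4 members rose in both genotypes, and 3 of 4 with scaling to total counts. Over all tested genes, 40.0% were called higher in KO and 40.7% in WT, or 20.2% and 19.8% with scaling to total counts. Genes called lower were 46.2% in KO and 44.7% in WT, or 70.4% and 69.9% with scaling to total counts. The class counts below stand beside the same shares. Rab8b rose in KO, with 1306, 1209, 1155, 1293 and 1280 CPM in the KO LPS libraries, against 192, 190, 191 and 196 CPM in the KO Control libraries. In WT it gave 975, 1314, 959, 1006 and 1130 CPM in the WT LPS libraries, against 189, 189, 211 and 203 CPM in the WT Control libraries. All LPS libraries lay far above all control libraries, with changes of 2.70 ± 0.08 in KO and 2.44 ± 0.08 in WT (edgeR adjusted p = 8.9e-17 in KO and edgeR adjusted p = 4.0e-16 in WT). Rab8a, its close relative, averaged 401 ± 12.2 CPM in KO LPS and 143 ± 3.00 CPM in KO Control, and 382 ± 18.3 CPM in WT LPS and 139 ± 3.39 CPM in WT Control (1.49 ± 0.04 and 1.46 ± 0.04). Rab10, which in macrophages carries Toll-like receptor 4 to the surface, averaged 347 ± 11.6 CPM in KO LPS and 152 ± 3.92 CPM in KO Control, and 339 ± 20.3 CPM in WT LPS and 147 ± 3.26 CPM in WT Control (1.19 ± 0.05 and 1.21 ± 0.05). Rab13, at about 1 CPM, rose by 0.71 in KO and 1.02 in WT, and its sign in KO turned under total-count scaling.

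Late endosome, lysosome and phagosome Rabs divided evenly, with 4 of 8 tested members higher and 4 lower in each genotype, also with scaling to total counts. Rab20 had the highest fold change of the family. It lay at 54.1, 38.8, 26.9, 40.6 and 40.5 CPM in the KO LPS libraries, against 1.32, 1.49, 1.15 and 1.90 CPM in the KO Control libraries. In WT it lay at 37.4, 39.5, 21.7, 25.6 and 30.5 CPM in the WT LPS libraries, against 1.61, 1.48, 1.11 and 1.98 CPM in the WT Control libraries. No LPS library overlapped a control library, and the changes were 4.77 ± 0.24 in KO and 4.32 ± 0.23 in WT (edgeR adjusted p = 1.9e-13 in KO and edgeR adjusted p = 9.1e-13 in WT), which is 27.3-fold and 19.9-fold. Rab20 is known to be induced by interferon-gamma in macrophages.

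Rab7 (gene ID 19349), which drives fusion of late endosomes and phagosomes with lysosomes, averaged 1299 ± 39.9 CPM in KO LPS and 422 ± 10.0 CPM in KO Control, and 1307 ± 59.4 CPM in WT LPS and 404 ± 8.03 CPM in WT Control. It rose by 1.62 ± 0.04 in KO and 1.69 ± 0.05 in WT without overlap. Rab12, which takes transferrin receptor to lysosomes, averaged 51.4 ± 3.84 CPM in KO LPS and 13.5 ± 1.08 CPM in KO Control, and 47.0 ± 7.81 CPM in WT LPS and 12.3 ± 0.623 CPM in WT Control (1.93 ± 0.10 and 1.93 ± 0.10). Rab9, which returns mannose 6-phosphate receptors to the Golgi, rose by 1.30 in KO and 1.23 in WT.

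The 4 that fell were Rab24, Rab7b, Rab32 and Rab39. Rab7b averaged 182 ± 28.6 CPM in KO LPS and 440 ± 22.5 CPM in KO Control, and 231 ± 45.7 CPM in WT LPS and 434 ± 5.59 CPM in WT Control. It fell without overlap, with log2 changes of -1.28 ± 0.12 in KO and -0.91 ± 0.12 in WT (edgeR adjusted p = 5.9e-09 and edgeR adjusted p = 8.3e-07), while Rab7 rose. Rab32 averaged 121 ± 7.36 CPM in KO LPS and 203 ± 10.5 CPM in KO Control, and 108 ± 8.60 CPM in WT LPS and 186 ± 7.06 CPM in WT Control (-0.75 ± 0.06 and -0.79 ± 0.06). Rab39, which mouse dendritic cells use in cross-presentation from phagosomes, averaged 19.4 ± 2.36 CPM in KO LPS and 34.4 ± 0.424 CPM in KO Control, and 20.4 ± 2.04 CPM in WT LPS and 36.4 ± 2.14 CPM in WT Control (-0.83 ± 0.08 and -0.83 ± 0.08). All 4 also fell in each genotype with scaling to total counts.

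Of 11 tested early endosome and recycling Rabs, 9 were higher in each genotype with TMM scaling. With scaling to total counts the class turned round, with 4 higher and 7 lower in KO and 4 higher and 6 lower in WT. Rab11a, Rab21, Rab22a and Rab5a were the 4 that rose under both scalings. Rab22a gave 99.9, 81.3, 91.2, 92.1 and 92.0 CPM in the KO LPS libraries, against 21.2, 20.6, 20.9 and 18.8 CPM in the KO Control libraries. In WT it gave 78.1, 91.8, 74.0, 74.2 and 86.8 CPM in the WT LPS libraries, against 20.9, 23.1, 21.1 and 20.0 CPM in the WT Control libraries. The groups were far apart, at 2.16 ± 0.08 in KO and 1.93 ± 0.07 in WT. Rab21, which carries integrins in endocytosis, averaged 116 ± 7.10 CPM in KO LPS and 41.5 ± 2.13 CPM in KO Control, and 99.5 ± 25.8 CPM in WT LPS and 40.5 ± 1.31 CPM in WT Control (1.48 ± 0.12 and 1.30 ± 0.12). Rab5a, of early endosome fusion, averaged 76.4 ± 3.91 CPM in KO LPS and 35.5 ± 2.50 CPM in KO Control, and 72.3 ± 8.85 CPM in WT LPS and 35.5 ± 0.982 CPM in WT Control (1.11 ± 0.07 and 1.02 ± 0.07). Rab11a, of the recycling endosome, averaged 181 ± 8.06 CPM in KO LPS and 90.7 ± 5.53 CPM in KO Control, and 170 ± 14.6 CPM in WT LPS and 84.5 ± 1.81 CPM in WT Control (1.00 ± 0.06 and 1.01 ± 0.06).

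Smaller changes were seen in Rab14 and Rab31. Rab14, found on endosomes that hold antigen for cross-presentation, averaged 128 ± 9.00 CPM in KO LPS and 110 ± 4.24 CPM in KO Control, and 124 ± 4.34 CPM in WT LPS and 106 ± 1.89 CPM in WT Control (0.22 ± 0.05 and 0.24 ± 0.05). Its change turned to -0.57 in KO and -0.51 in WT with scaling to total counts. Rab31, a relative of Rab22a that acts between the Golgi and endosomes, fell, with averages of 20.5 ± 2.22 CPM in KO LPS and 31.0 ± 1.13 CPM in KO Control, and 18.5 ± 2.10 CPM in WT LPS and 28.3 ± 1.89 CPM in WT Control (-0.59 ± 0.08 and -0.61 ± 0.08). Rab4b fell by 0.19 log2 in KO (edgeR adjusted p = 0.024) and did not pass in WT (0.00 ± 0.08).

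Of 14 tested ER and Golgi Rabs, 9 rose and 3 fell in each genotype, and Rab1b and Rab34 did not pass, with TMM scaling. With scaling to total counts 4 rose (Rab1a, Rab29, Rab2b and Rab30) and 7 fell in each genotype, Rab1b among them. Rab29, which recruits the kinase LRRK2 to membranes, rose furthest in this class. It lay at 85.8, 77.5, 79.4, 78.5 and 86.9 CPM in the KO LPS libraries, against 11.5, 12.3, 12.6 and 14.6 CPM in the KO Control libraries. In WT it lay at 77.3, 79.4, 71.0, 69.4 and 73.8 CPM in the WT LPS libraries, against 11.5, 11.1, 10.4 and 11.9 CPM in the WT Control libraries. The changes were 2.68 ± 0.07 in KO and 2.73 ± 0.07 in WT, with no overlap. Rab30, a Golgi Rab, averaged 39.8 ± 0.663 CPM in KO LPS and 13.5 ± 1.14 CPM in KO Control, and 41.4 ± 2.98 CPM in WT LPS and 15.1 ± 0.890 CPM in WT Control (1.56 ± 0.07 and 1.45 ± 0.07). Rab1a, of transport from ER to Golgi, averaged 192 ± 7.63 CPM in KO LPS and 73.2 ± 3.84 CPM in KO Control, and 184 ± 10.4 CPM in WT LPS and 71.8 ± 2.45 CPM in WT Control (1.39 ± 0.05 and 1.36 ± 0.05).

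Rab43 (gene ID 69834), an ER and Golgi Rab that mouse cDC1 use for cross-presentation, lay at 1380, 1417, 1454, 1377 and 1422 CPM in the KO LPS libraries, against 855, 844, 841 and 691 CPM in the KO Control libraries. In WT it lay at 1316, 1274, 1439, 1386 and 1357 CPM in the WT LPS libraries, against 795, 831, 801 and 796 CPM in the WT Control libraries. Every LPS library lay above every control library, at 0.80 ± 0.06 in KO and 0.75 ± 0.06 in WT, and KO and WT differed by 0.06 ± 0.05 with LPS (edgeR adjusted p = 0.53) and 0.00 ± 0.06 in control (edgeR adjusted p = 0.99). With scaling to total counts the LPS changes were no longer called, at 0.02 in KO and 0.01 in WT. Rab34, which positions lysosomes near the nucleus, ranged from 0.310 CPM in KO Control replicate 1 to 1.53 CPM in WT LPS replicate 2. Its LPS change did not pass (0.35 ± 0.32 in KO, edgeR adjusted p = 0.31). Rab19 averaged 6.89 ± 0.376 CPM in KO LPS and 14.1 ± 0.421 CPM in KO Control, and 7.35 ± 0.556 CPM in WT LPS and 12.7 ± 0.742 CPM in WT Control (-1.03 ± 0.07 and -0.79 ± 0.07), and Rab6b 2.82 ± 0.890 CPM in KO LPS and 9.82 ± 0.964 CPM in KO Control, and 2.49 ± 0.426 CPM in WT LPS and 7.56 ± 0.797 CPM in WT Control (-1.80 ± 0.17 and -1.60 ± 0.17); both fell.

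Of 3 tested Rabs of regulated secretion, 3 fell with LPS in KO and 2 in WT, where Rab27a was at 0.00 ± 0.12 with TMM scaling. All 3 fell in both genotypes with scaling to total counts, where 70.4% of all tested genes were lower in KO and 69.9% in WT. Rab3d averaged 7.62 ± 0.620 CPM in KO LPS and 25.7 ± 1.86 CPM in KO Control, and 8.30 ± 1.34 CPM in WT LPS and 22.7 ± 0.498 CPM in WT Control (-1.75 ± 0.09 and -1.45 ± 0.09). Rab3a, of synaptic and granule exocytosis and named here after its values were seen, had 4, 0, 1, 3 and 2 estimated counts in the KO LPS libraries, against 145, 134, 135 and 135 in the KO Control libraries. In WT it had 6, 2, 3, 0 and 2 with LPS, against 133, 131, 114 and 141 in control. The fitted changes of -5.20 ± 0.31 and -4.83 ± 0.30 rest on those few LPS reads. The other 5 of the 8 members in this class, Rab26, Rab27b, Rab37, Rab3b and Rab3c, were not tested at up to 8 counts in a library.

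The remaining tested members, Rab23, Rab28 and Rab40c, were lower with LPS in both genotypes. Rab40c, which joins a ubiquitin ligase through a SOCS box, averaged 7.72 ± 1.01 CPM in KO LPS and 14.2 ± 0.519 CPM in KO Control, and 8.01 ± 0.676 CPM in WT LPS and 14.5 ± 1.09 CPM in WT Control (-0.88 ± 0.09 and -0.85 ± 0.09). Rab28 averaged 10.8 ± 0.615 CPM in KO LPS and 13.6 ± 0.852 CPM in KO Control, and 12.0 ± 0.897 CPM in WT LPS and 13.6 ± 0.882 CPM in WT Control (-0.34 ± 0.07 and -0.18 ± 0.07). Its WT call was lost with DESeq2 (adjusted p = 0.093), with RLE factors and without WT Control replicate 4. The call was also lost without both WT libraries that hold neutrophil transcripts.

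**Figure D3:**
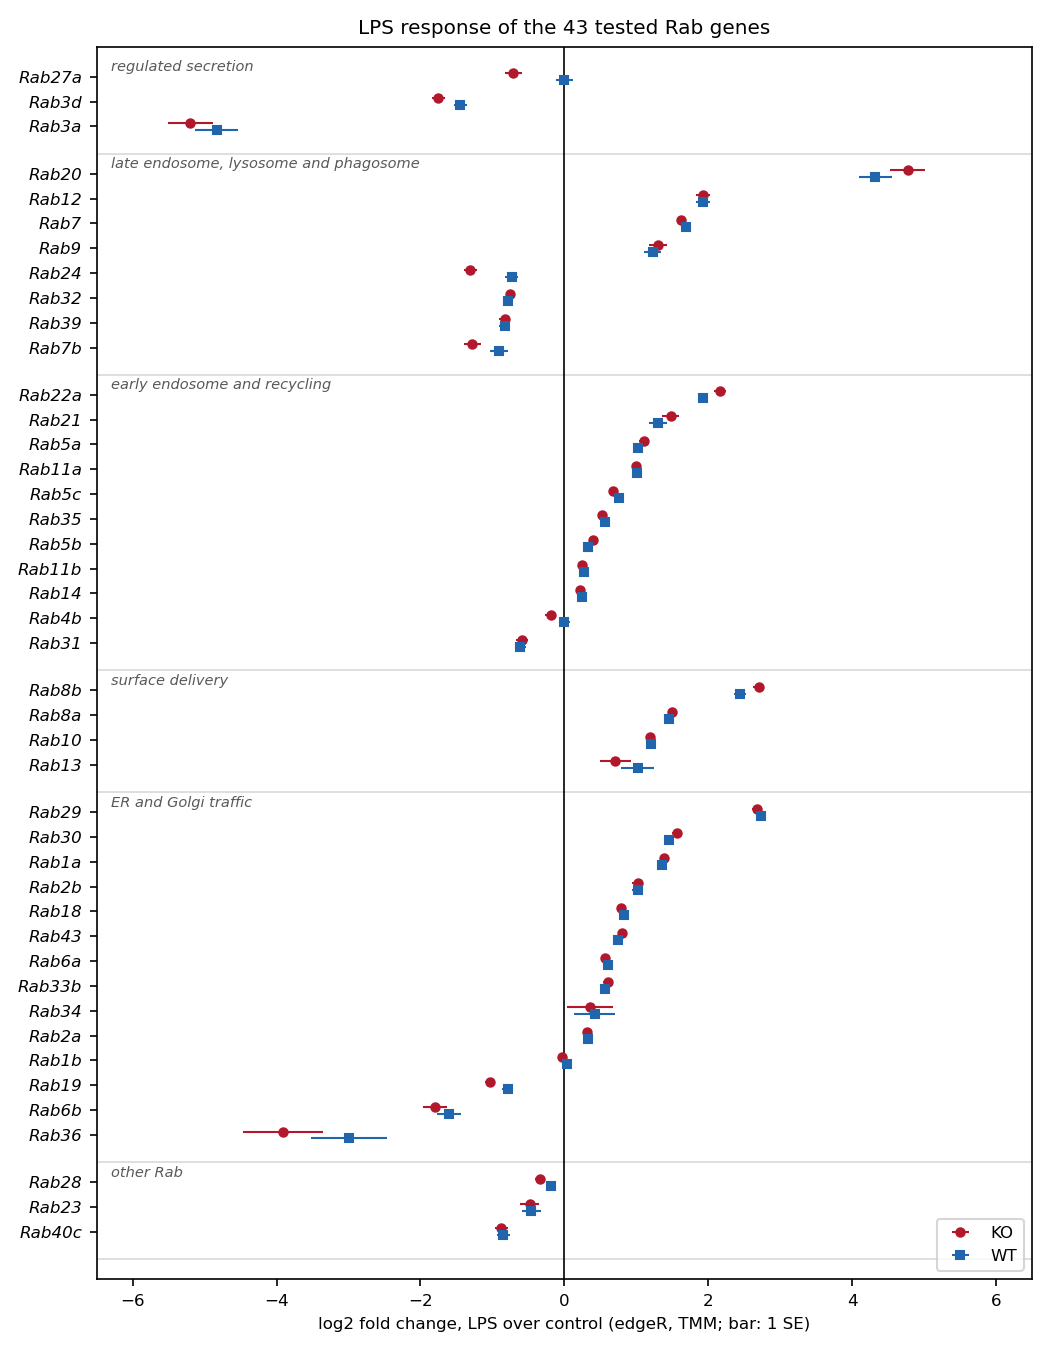
Log2 fold change of LPS over control in KO (red circles) and WT (blue squares) for the 43 tested Rab genes, grouped by role, with bars of 1 SE. Rab20 lies furthest right (4.77 in KO and 4.32 in WT) and Rab3a furthest left (-5.20 in KO and -4.83 in WT), and Rab27a is at -0.71 in KO and near 0 in WT with TMM scaling, against -1.49 in KO and -0.74 in WT with scaling to total counts.

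Levels per transcript length were compared in the deposited TPM. Rab7 was the most abundant member in every group, at 830 ± 43.4 TPM in KO LPS, 863 ± 39.3 in WT LPS, 423 ± 5.69 in KO Control and 443 ± 13.8 in WT Control (SD). Rab43 was next, at 391 ± 17.6, 389 ± 38.7, 352 ± 43.3 and 383 ± 13.4 TPM in the same order of groups. In control cells the values of Rab7 and Rab43 were closer to each other than with LPS. Summed over the 58 members, the family held 3593 ± 86.3 TPM in KO LPS, 3614 ± 136 in WT LPS, 3034 ± 79.4 in KO Control and 3218 ± 77.8 in WT Control. On the log2 scale the LPS to control ratio of these sums was 0.24 in KO and 0.17 in WT, and with TMM-scaled CPM in place of TPM it was 0.91 and 0.89.

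The makeup of that sum differed between LPS and control. Surface delivery Rabs made up 20.7 ± 0.603% of the family's TPM in KO LPS and 10.8 ± 0.228% in KO Control, and 19.5 ± 1.01% in WT LPS and 10.9 ± 0.237% in WT Control. Regulated secretion Rabs summed to 16.2 ± 3.35 TPM in KO LPS, 28.5 ± 4.40 in WT LPS, 55.0 ± 3.57 in KO Control and 62.0 ± 2.35 in WT Control. In TMM-scaled CPM the same sums were closer together, at 38.8 ± 6.98 in KO LPS, 64.9 ± 6.56 in WT LPS, 80.3 ± 4.08 in KO Control and 82.8 ± 1.36 in WT Control. Late endosome, lysosome and phagosome Rabs held 30.6% in KO LPS, 31.6% in WT LPS, 31.5% in KO Control and 31.2% in WT Control.

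**Figure D4:**
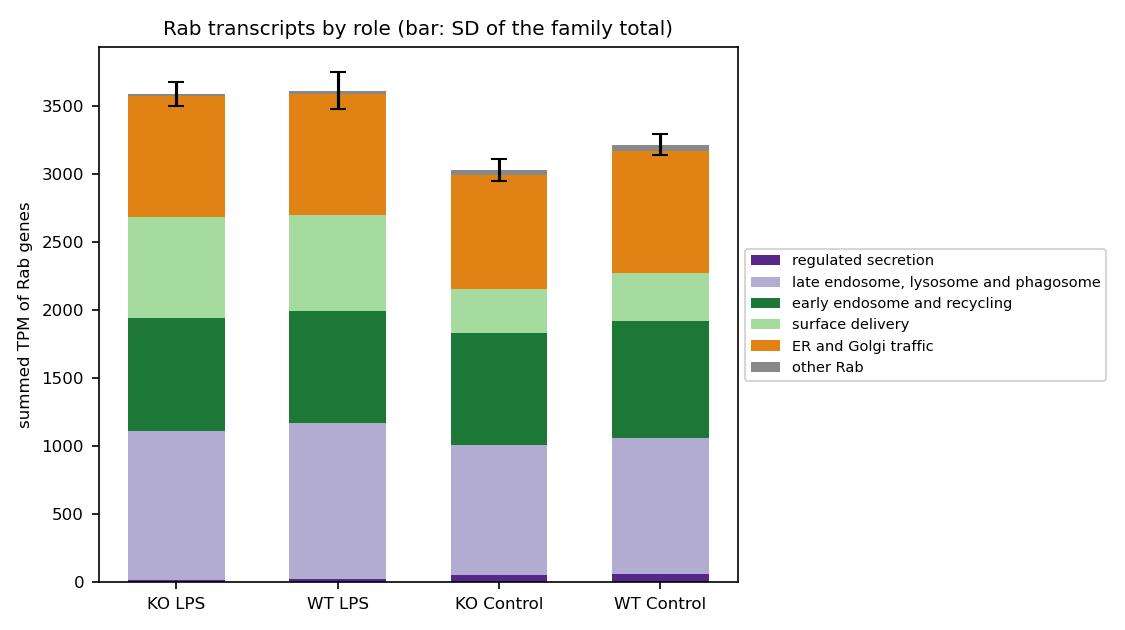
Mean summed TPM of the 58 Rab genes in each group, stacked by role; the black bar is the SD of the family total (n = 5 libraries with LPS, 4 in control). Surface delivery (pale green) is 743 TPM in KO LPS and 703 in WT LPS, and 327 in KO Control and 351 in WT Control.

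The balance between close relatives differed between LPS and control, and the order of the means turned for Rab8a and Rab8b and for Rab11a and Rab11b of the pairs read. The ratio of Rab7 to Rab7b in TPM was 14.5 in KO LPS and 11.6 in WT LPS, and 2.08 in KO Control and 2.00 in WT Control. Rab8a was below Rab8b with LPS, at ratios of 0.835 in KO and 0.926 in WT, and above it in control, at 1.93 in KO and 1.82 in WT. In WT LPS 2 libraries had Rab8a at or above Rab8b, so the turn was full only in KO. The ratio of Rab22a to Rab31 was 8.78 in KO LPS and 8.61 in WT LPS, and 1.29 in KO Control and 1.48 in WT Control. Rab11a to Rab11b gave 1.36 in KO LPS and 1.29 in WT LPS, and 0.795 in KO Control and 0.786 in WT Control. For Rab1a to Rab1b the ratios were 0.734 in KO LPS and 0.678 in WT LPS, and 0.273 in KO Control and 0.272 in WT Control. Ratios within a library do not depend on the scaling. How reads shared by such relatives were counted is not stated.

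**Figure D5:**
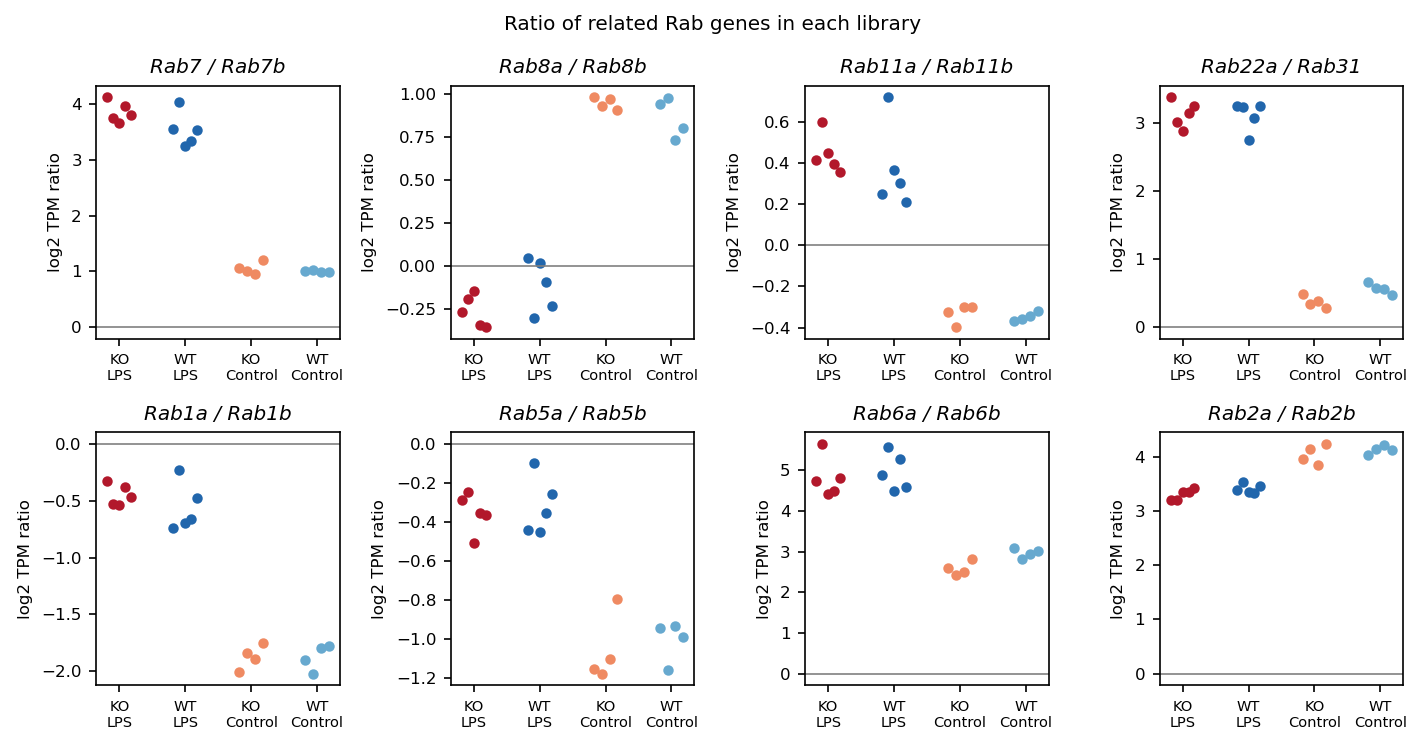
Log2 ratio of TPM between related Rab genes in each library, by group (KO LPS, WT LPS, KO Control, WT Control); the grey line marks equal levels. For each pair shown the LPS libraries (red, blue) lie apart from the control libraries (orange, pale blue); Rab7 over Rab7b is 3.86 on average in KO LPS and 1.05 in KO Control.

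The 15 members that were not tested had at most 15 counts in any library. They were Rab15, Rab17, Rab25, Rab26, Rab27b, Rab33a, Rab37, Rab38, Rab39b, Rab3b, Rab3c, Rab40b, Rab42, Rab44 and Rab4a, and 7 of them had no more than 3 counts in any library. By RefSeq names several members overlap other genes, such as Rab2b with Tox4, Rab5b with Pmel, Rab6a with Mrpl48 and Rab5a with Pp2d1. Without stated strand, reads in such overlaps cannot be told apart.

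Genes that run the Rab cycle were read from 4 lists of machinery. Between KO and WT with LPS, 1 of 12 lipidation and recycling factors was higher and 2 lower, 4 of 35 exchange factors were higher and 2 lower, 3 of 34 GTPase-activating proteins were higher and 3 lower, and 4 of 36 effectors were higher and 3 lower, beside 10.8% of all tested genes called. Those calls made up 25.0%, 17.1%, 17.6% and 19.4% of the tested genes of the 4 lists, in that order. Of all tested genes, 5.30% were called higher and 5.50% lower. In control 0 of all 4 lists were called by edgeR, beside 2.41% of all tested genes. Unc13d, which encodes the Rab27a effector Munc13-4, was lower in KO with LPS (31.8 ± 1.90 CPM in KO LPS and 38.9 ± 4.11 in WT LPS, -0.29 ± 0.06, edgeR adjusted p = 0.0062). Tbc1d9 was lower (505 ± 38.9 CPM in KO LPS and 699 ± 70.0 in WT LPS, -0.47 ± 0.06, 5.7e-05). Rab3il1, an exchange factor of Rab3a and Rab8, was lower at under 1 CPM (-1.14 ± 0.29, 0.016). Higher in KO were Ehd1, which shapes recycling endosomes (0.37 ± 0.07, 9.6e-04), the Rab35 exchange factor Dennd1b (0.32 ± 0.06, 0.0013), the Rab7 GTPase-activating protein Tbc1d15 (0.46 ± 0.12, 0.017) and the Rab escort protein Chm (0.22 ± 0.06, 0.012).

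With LPS, lipidation and recycling factors mostly fell, with 9 of 12 lower and 3 higher in both genotypes, where 46.2% of all tested genes were lower in KO and 44.7% in WT. Under total-count scaling 11 of 12 were lower in each genotype, where 70.4% of all tested genes were lower in KO and 69.9% in WT. Gdi2, which extracts GDP-bound Rabs from membranes, averaged 288 ± 8.20 CPM in KO LPS and 808 ± 37.6 in KO Control, and 316 ± 19.1 in WT LPS and 784 ± 12.9 in WT Control (-1.49 ± 0.05 in KO and -1.31 ± 0.05 in WT). Exchange factors divided, with 15 higher and 15 lower in KO and 15 higher and 16 lower in WT, or 85.7% called in KO and 88.6% in WT, near the 86.2% and 85.5% of all tested genes. Under total-count scaling they were 11 higher and 23 lower in KO, and 11 higher and 22 lower in WT. The Rab10 exchange factor Dennd4a rose (3.17 in KO and 2.96 in WT). Rab3il1 (-3.84 in KO) and Dennd2c (-2.79 in WT) fell. Of 36 tested effectors, 13 were higher and 19 lower in KO, and 11 higher and 20 lower in WT, or 88.9% and 86.1% called. Under total-count scaling 8 were higher and 27 lower in KO, and 6 higher and 27 lower in WT. Optn, which binds Rab8, rose by 4.35 ± 0.11 in KO and 4.26 ± 0.11 in WT, and Rufy3 by 3.77 and 3.54. Bicd1 fell at under 1 CPM (-3.64 in KO and -3.56 in WT). Of 34 tested GTPase-activating proteins, 13 were higher and 16 lower in each genotype, or 85.3% called. Under total-count scaling 5 were higher and 24 lower in KO, and 4 higher and 27 lower in WT. Sgsm2 fell (-3.41 in KO and -3.14 in WT), while Tbc1d1, which acts on Rab8 and Rab10, rose by 3.16 in KO and 2.72 in WT.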

How the data were processed

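RNA libraries of 150-base read pairs were made for the DNBSEQ platform, per the labels. HISAT and Bowtie2 with build GRCm39 are named in the submitters' processing notes; the sources used here give no versions, annotation or counting program. Per the file headers, the authors deposited an estimated count, a TPM and an FPKM value per gene and library. Of the deposited estimated counts, 6.37% were not whole at a tolerance of 0.001. The deposited TPM values served for levels between genes, and the deposited FPKM values were not used.

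Estimated counts were rounded and fitted with edgeR 4.0.16 (R 4.3.3): filterByExpr (minimum count 10, minimum total 15), TMM, quasi-likelihood test, 1 mean for each of 4 groups, 18 libraries, no block. The 5 contrasts were KO against WT with LPS and in control, LPS against control in each genotype, and the interaction. Benjamini-Hochberg adjustment ran over all 11989 genes tested, with calls at an adjusted p under 0.05. The script was tested on simulated data. The biological coefficient of variation was 0.0934, and replicates differed by more than counting error (chi-square per degree of freedom 2.70 to 73.7). Alternatives were DESeq2 1.42.0, limma-voom (limma 3.58.1), total-count and RLE scaling, no filter, only the groups compared, a replicate block, and leaving out libraries.

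The members, role classes, machinery and marker lists were chosen with earlier results of these data known. Named in full are members called between genotypes or in the interaction, the 10 highest and 10 lowest called for LPS in WT that reach 5 CPM, and Rabs with known roles in dendritic cells or macrophages. Of the machinery, genes are named from among the 3 called with the largest change in each list and comparison. Sequences and gene neighbours are from RefSeq, GRCm38.p6.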

Additional observations from a re-analysis of the deposited data

Results flagged for a closer look

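Over the 27 members named in full, 108 groups of 4 or 5 libraries were checked for a library apart from the rest, and 7 had one. Chance flags about 1 in 20 groups. WT LPS replicate 2 was apart for Rab11a (196 CPM, nearest library 166 CPM) and Rab1a (202 CPM, nearest 182 CPM). KO Control replicate 4 was apart for Rab11a (99.0 CPM, nearest 88.6 CPM), Rab5a (39.2 CPM, nearest 34.5 CPM) and, on the low side, Rab43 (691 CPM, nearest 841 CPM). KO LPS replicate 3 was apart for Rab31 (24.4 CPM, nearest 20.3 CPM), and WT Control replicate 1 for Rab19, on the low side (11.6 CPM, nearest 13.0 CPM).

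The LPS effect differed between KO and WT for Rab24, with an interaction of -0.58 log2, and for Rab27a, with -0.71 log2 (edgeR adjusted p = 0.02 for Rab24 and 0.026 for Rab27a). For both genes, 5 of 5 KO LPS libraries lay below every WT LPS library.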

How the results depend on the processing

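Among members, 2 were called between KO and WT with LPS (4.65%, beside 10.8% of all tested genes). That count was 5 with DESeq2 (11.6%, beside 14.1%), 4 with scaling to total counts (9.30%, beside 12.9%) and 4 with RLE factors (9.30%, beside 11.4%). It was 7 with a replicate block (16.3%, beside 16.0%), with Rab8b, Rab32, Rab20, Rab7b and Rab4b added (edgeR adjusted p 0.015 to 0.038). Without libraries 5 and 7, the run that holds no control (WT LPS and KO LPS replicate 2), it was 14 (32.6%, beside 27.1%). With 1 library left out it was 2 to 12, beside 6.72% to 27.9% of all tested genes. In control the count of 0 became 1 with no filter on low counts, with only the groups compared, with a replicate block, without libraries 5 and 7, and without both WT libraries that hold neutrophil transcripts, a setting added after the data were seen; it was 0 to 1 with 1 library left out. The gene was Rab4a with no filter and without the neutrophil libraries, and Rab6b with only the groups compared, with the block and without libraries 5 and 7. Of all tested genes, 1.51% were called in control with no filter and 1.59% without the neutrophil libraries. The share was 7.71% with only the groups compared, 5.12% with the block, 6.88% without libraries 5 and 7, and 0.945% to 6.28% with 1 library left out. The interaction count of 2 became 6 without libraries 5 and 7 (14.0%, beside 13.3% of all tested genes) and 1 without the neutrophil libraries (2.27%, beside 1.71%). With 1 library left out it was 0 to 6, beside 1.72% to 12.5% of all tested genes. Counts for LPS stayed at 39 to 43 in KO and 38 to 40 in WT over all settings run. Beside these, 66.1% to 90.5% of all tested genes were called in KO and 65.3% to 89.7% in WT. With scaling to total counts, Rab14 turned to -0.57 in KO (edgeR adjusted p = 1.0e-08) and -0.51 in WT (5.4e-08); the scaling itself moves the median. The log2 ratio of summed levels with LPS was 0.91 in KO and 0.89 in WT with CPM in place of TPM.

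The labels do not say that equal replicate numbers pair KO and WT libraries. The correlations of their deviations were 0.00923, 0.187, 0.353, 0.0605 and 0.071 with LPS and 0.0853, 0.248, 0.0661 and 0.0287 in control, all positive. The WT library that correlated best had the same number for KO LPS replicates 2, 3 and 5 and KO Control replicates 2 and 3, and another number for the rest. These values do not settle whether such libraries are paired. The blocks of the fit with a replicate block are runs of 4 library numbers. Within a block the LPS and the control library gave 0.273, 0.191, 0.14 and 0.252 in WT, all above 0.1, and 0.111, 0.136, -0.03 and -0.0308 in KO. The block changed no count for LPS or the interaction, with 39 called for LPS in WT. Over all genes, calls between KO and WT with LPS were 1294, and 619 with only the groups compared, 1915 with the block and 3238 without libraries 5 and 7. In control they were 289, and 895, 614 and 822 in those settings. Depth limits the 15 untested members, at no more than 15 counts in a library; with no filter, Rab4a in control, Rab38 with LPS in WT, and Rab42 and Rab4a with LPS in KO were called among them.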
